A study of Mus musculus with 8 samples.

Results

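The level of 10 transcription regulators of the myeloid lineage was followed in *iMLL-AF9* mouse leukemic cells treated with IOX5 or with DMSO. They were taken by gene symbol, as the rows named *Spi1*, *Cebpa*, *Cebpb*, *Cebpd*, *Runx1*, *Irf8*, *Gfi1*, *Klf4*, *Myb* and *Id2* in the GENCODE M21 annotation, and make up 10 of the 54838 genes listed in the count tables. All 10 passed the filter on low counts, which left 12405 genes for testing. The cells carry a doxycycline-inducible *MLL-AF9* fusion oncogene in both groups and are labelled wild type in other respects, leukaemic stem cells by cell type and bone marrow by tissue, whereas the design text of the series calls them preleukaemic. IOX5 is a selective inhibitor of the prolyl hydroxylases that mark HIF-α for degradation, and DMSO is the solvent that served as vehicle. Each group holds 4 samples, numbered 1 to 4, and the dose and duration of treatment of these samples were not given in the sources used here. No source says that the samples came from separate cultures or animals, so p-values measure the spread between these samples. In the fit blocked on the number, described further on, they measure the spread left after differences between numbers are removed.

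Myeloid cells are made by a small circuit of transcription factors that act in combination. PU.1, the product of *Spi1*, and C/EBPα commit progenitors to the myeloid lineage, RUNX1 prepares their target genes, and MYB keeps progenitors growing. Later, IRF8 and KLF4 favor monocytes and dendritic cells, GFI1 and the C/EBP proteins favor granulocytes, and ID2 binds E proteins and keeps them off DNA. Leukemia driven by MLL fusions arises in cells of this lineage, depends on several of these factors, MYB among them, and is halted before maturation.

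RefSeq promoter windows of build GRCm38.p6 were found for 8 of the 10 factors, and none were used for *Spi1* and *Cebpd*. Of these, 7 are shown, because they belong to the factors called higher in the paired comparison described further on (*Cebpa*, *Gfi1*, *Myb* and *Id2*) or hold the HIF core motif ACGTG beside a factor that was not called (*Irf8*, *Klf4* and *Runx1*). Each is the stretch of 250 bases before the annotated start, 5′ to 3′ on the strand of the gene, and capitals mark matches to the HIF core (ACGTG or GCGTG), to the PU.1 core GAGGAA, to the C/EBP site TTGCNNAA or to the RUNX site TGTGGT on either strand.
Cebpa: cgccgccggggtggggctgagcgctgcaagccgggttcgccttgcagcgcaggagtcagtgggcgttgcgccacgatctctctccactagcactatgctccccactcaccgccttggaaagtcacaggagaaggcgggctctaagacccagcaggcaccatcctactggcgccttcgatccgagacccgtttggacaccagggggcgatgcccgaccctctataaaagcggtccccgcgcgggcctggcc
Gfi1: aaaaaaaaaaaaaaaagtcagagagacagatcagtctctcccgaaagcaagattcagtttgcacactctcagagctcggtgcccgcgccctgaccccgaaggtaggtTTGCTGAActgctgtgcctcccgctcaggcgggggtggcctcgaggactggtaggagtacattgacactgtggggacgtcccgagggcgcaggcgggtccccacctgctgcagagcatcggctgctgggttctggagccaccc
Myb: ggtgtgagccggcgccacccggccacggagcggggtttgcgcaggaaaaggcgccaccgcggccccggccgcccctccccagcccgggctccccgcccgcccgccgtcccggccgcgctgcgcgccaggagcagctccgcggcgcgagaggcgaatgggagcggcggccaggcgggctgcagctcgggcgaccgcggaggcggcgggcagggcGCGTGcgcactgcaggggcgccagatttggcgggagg
Id2: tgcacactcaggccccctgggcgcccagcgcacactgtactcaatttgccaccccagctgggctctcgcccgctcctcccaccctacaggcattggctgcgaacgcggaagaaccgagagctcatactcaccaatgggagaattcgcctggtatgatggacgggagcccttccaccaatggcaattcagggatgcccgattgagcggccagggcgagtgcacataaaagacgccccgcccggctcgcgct
Irf8: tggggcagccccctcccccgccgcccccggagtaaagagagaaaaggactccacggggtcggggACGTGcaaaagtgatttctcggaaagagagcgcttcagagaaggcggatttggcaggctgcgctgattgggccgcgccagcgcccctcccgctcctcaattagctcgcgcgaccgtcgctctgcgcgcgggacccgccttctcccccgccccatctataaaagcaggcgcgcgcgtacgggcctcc
Klf4: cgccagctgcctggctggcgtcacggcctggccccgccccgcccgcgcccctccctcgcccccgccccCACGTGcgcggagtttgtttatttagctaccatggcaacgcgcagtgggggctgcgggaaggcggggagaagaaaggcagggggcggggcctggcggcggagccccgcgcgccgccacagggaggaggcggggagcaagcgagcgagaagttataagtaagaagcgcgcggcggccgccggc
Runx1: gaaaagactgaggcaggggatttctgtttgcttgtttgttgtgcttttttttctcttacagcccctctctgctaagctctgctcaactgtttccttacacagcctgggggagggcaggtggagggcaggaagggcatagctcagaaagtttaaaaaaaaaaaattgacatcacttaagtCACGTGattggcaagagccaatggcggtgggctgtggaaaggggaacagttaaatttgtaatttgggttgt
The windows lie at chr7:35119043-35119292 on the plus strand for *Cebpa*, chr5:107725806-107726055 on the minus strand for *Gfi1*, chr10:21160985-21161234 on the minus strand for *Myb*, chr12:25096093-25096342 on the minus strand for *Id2*, chr8:120736108-120736357 on the plus strand for *Irf8*, chr4:55532476-55532725 on the minus strand for *Klf4* and chr16:92826075-92826324 on the minus strand for *Runx1*. *Gfi1*, *Irf8* and *Runx1* have 2 RefSeq windows each, of which the one nearer the GENCODE start was taken. The RefSeq start lies 1048 bases from the GENCODE start for *Id2*, 231 for *Gfi1*, 75 for *Runx1* and 9 for *Klf4*. The window of *Id2* therefore lies inside the GENCODE gene, and that of *Gfi1*, its C/EBP match included, lies mostly inside it.

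ACGTG was found in the windows of *Irf8*, *Klf4* and *Runx1* and in 16.6% of all 32851 promoters of this length. In *Klf4* and *Runx1* it is read on both strands of a single palindrome, CACGTG. The other form of the HIF core, GCGTG, was found in *Myb* and *Cebpb* and in 28.2% of all promoters. A C/EBP site was matched in *Gfi1* alone among the 8 windows, against 9.56% of all promoters, and the PU.1 and RUNX motifs were matched in none of the 8, against 23.3% and 14% of all promoters. The windows of *Cebpa* and *Id2* held none of these letters, which says nothing of sites elsewhere. These are matches of letters and not measured binding sites.

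The samples held from 11351507 to 14116054 reads assigned to genes. Expression is given as CPM, read counts scaled to library size by TMM, which also evens out differences in library composition. Sex-linked genes differed by number in the same way in both groups. Number 1 had *Xist* at 1.34 CPM with DMSO and 0.0801 CPM with IOX5 and was the only number with the Y-linked gene *Ddx3y* above 1 CPM (111 and 114 CPM), whereas numbers 2 to 4 had *Xist* at 1236 CPM or more. Samples with the same number thus matched in these genes, which set number 1 apart but do not tell numbers 2 to 4 from each other. The labelled cell type was checked with 10 genes of MLL-rearranged myeloid progenitors, all of which were tested, among them *Hoxa9* (250.2 ± 29.3 CPM with DMSO, SD, n = 4), *Meis1* (104 ± 9.44 CPM) and *Mpo* (2195 ± 1209 CPM). The levels of this list were not uniform. *Flt3* was low, at 0.467 to 2.19 CPM with DMSO, and *Cd34* was at 26.0, 23.2, 133 and 153 CPM in DMSO samples 1 to 4. Of 16 lymphoid markers 3 passed the filter, *Cd79b* (478 reads over the 8 samples, at most 8.40 CPM), *Il7r* (429 reads, at most 16.7 CPM) and *Tcf7* (218 reads, at most 4.73 CPM), while *Cd4*, *Cd8a*, *Ms4a1*, *Rag1* and *Rag2* were among those at 0 reads. The summed level of the 9 stromal and endothelial markers did not exceed 2.72 CPM in any sample. Mast cell and basophil markers were present, at a summed level of 171 to 627 CPM with DMSO and 213 to 1022 CPM with IOX5 over 10 genes, and were higher with IOX5 within each of the 4 numbers. In bulk RNA, more cells of a type and more RNA per cell cannot be told apart.

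Per length of exon, the factors spanned a wide range. In the DMSO samples *Cebpb* (92.9 ± 25.6 CPM per kilobase, SD, n = 4) and *Spi1* (86.7 ± 9.21) stood highest and overlapped each other. *Cebpa* (43.6 ± 12.6 CPM per kilobase) and *Myb* (37.0 ± 5.91) came next and overlapped as well. *Gfi1* (22 ± 4.46 CPM per kilobase) lay below all samples of *Myb* and above all samples of *Irf8*. *Irf8* (9.0 ± 1.70), *Cebpd* (8.82 ± 0.921), *Id2* (7.94 ± 2.68) and *Runx1* (5.44 ± 1.35) formed a group in which each overlapped the next. *Klf4* was far lower, at 0.563 ± 0.0893 CPM per kilobase, with as few as 9 reads in a sample. With IOX5 the mean levels of *Cebpd* and *Id2* were 13.7 ± 4.91 and 14.6 ± 4.06 CPM per kilobase, above the 7.94 ± 2.46 of *Irf8*.

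**Figure D1:**
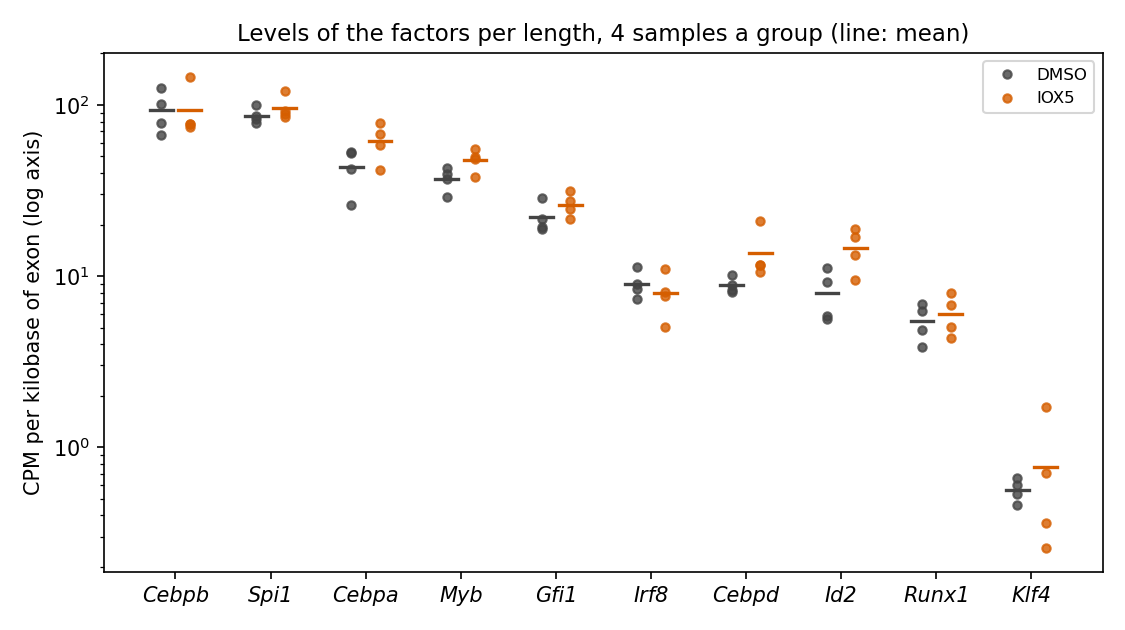
Levels of the 10 factors as CPM per kilobase of exon on a log axis, with 4 DMSO and 4 IOX5 samples as points and the group mean as a line. *Cebpb* and *Spi1* lead at 92.9 and 86.7 in DMSO, and *Klf4* is lowest at 0.563.

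The main comparison set all IOX5 samples against all DMSO samples and asked whether PHD inhibition changed the factors that set myeloid identity. Of the 10 factors, 0 were called at an adjusted p under 0.05 by edgeR's quasi-likelihood test with Benjamini-Hochberg adjustment over all genes, a test that called 2.02% of the 12405 genes. In 3 of the 10 (*Cebpd*, *Myb* and *Id2*) the unadjusted p was under 0.05, as it was in 2506 of the 12405 genes. Of the 10 log2 fold changes 9 were above 0, as were 6550 of the 12405 over all genes tested. The median of the 10 was 0.31 against 0.017 over all genes tested. *Cebpd* alone had groups that did not overlap, which was the case for 14.3% of all genes. DESeq2, the tool that the study's methods name for differential expression, called *Cebpd* and *Id2* higher, where it called 3.94% of all genes higher, and left *Klf4* without an adjusted p.

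The comparison was then made within numbers, with each IOX5 sample set against the DMSO sample of the same number. In all, 6 factors (*Spi1*, *Cebpa*, *Cebpd*, *Gfi1*, *Myb* and *Id2*) were higher with IOX5 in all 4 numbers, as were 21.3% of all genes. None was lower in all 4, and the share of all genes lower in all 4 was not computed. When the number entered the edgeR model as a blocking term, 5 of the 10 were called higher (*Cebpa*, *Cebpd*, *Gfi1*, *Myb* and *Id2*) and 0 lower. The same fit called 11.2% of all genes higher and 9.43% lower. The median log2 fold change was 0.28 in the blocked fit, and the standard errors were smaller. The largest shift was that of *Klf4*, from 0.42 to 0.30, and *Cebpb* changed sign, from 0.015 to -0.0051. The plot of both fits shows this for each factor.

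**Figure D2:**
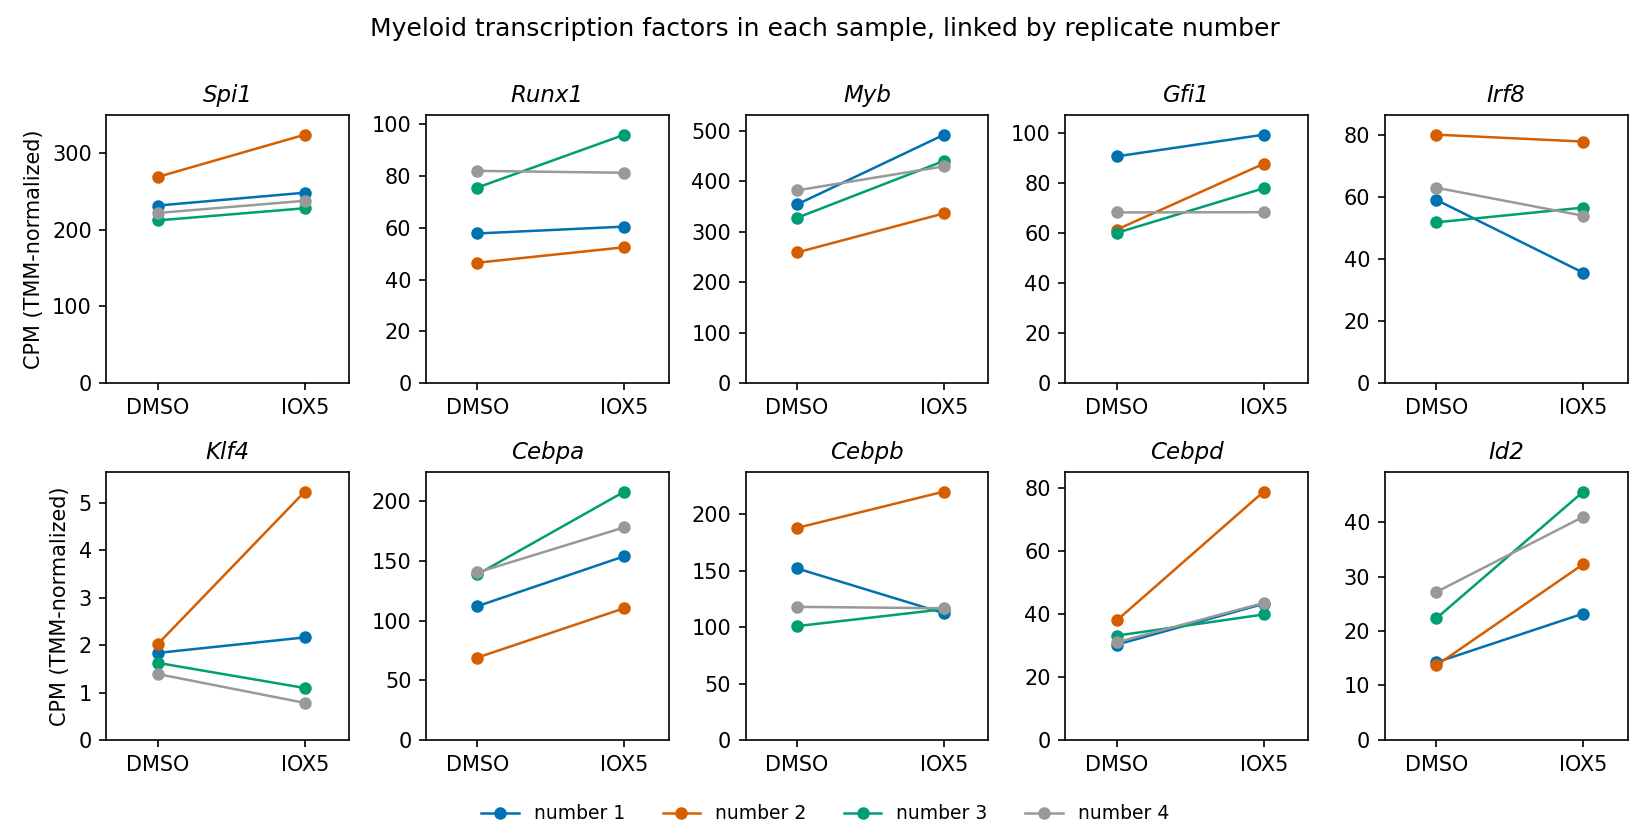
CPM of each factor (vertical axes start at 0) in the DMSO and IOX5 samples, with samples of the same replicate number joined by a line. The lines of *Cebpa*, *Cebpd*, *Myb* and *Id2* go up in all 4 numbers, while number 2 sets the top of *Cebpb*, *Irf8* and *Spi1* and the bottom of *Cebpa*, *Runx1* and *Myb*.

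**Figure D3:**
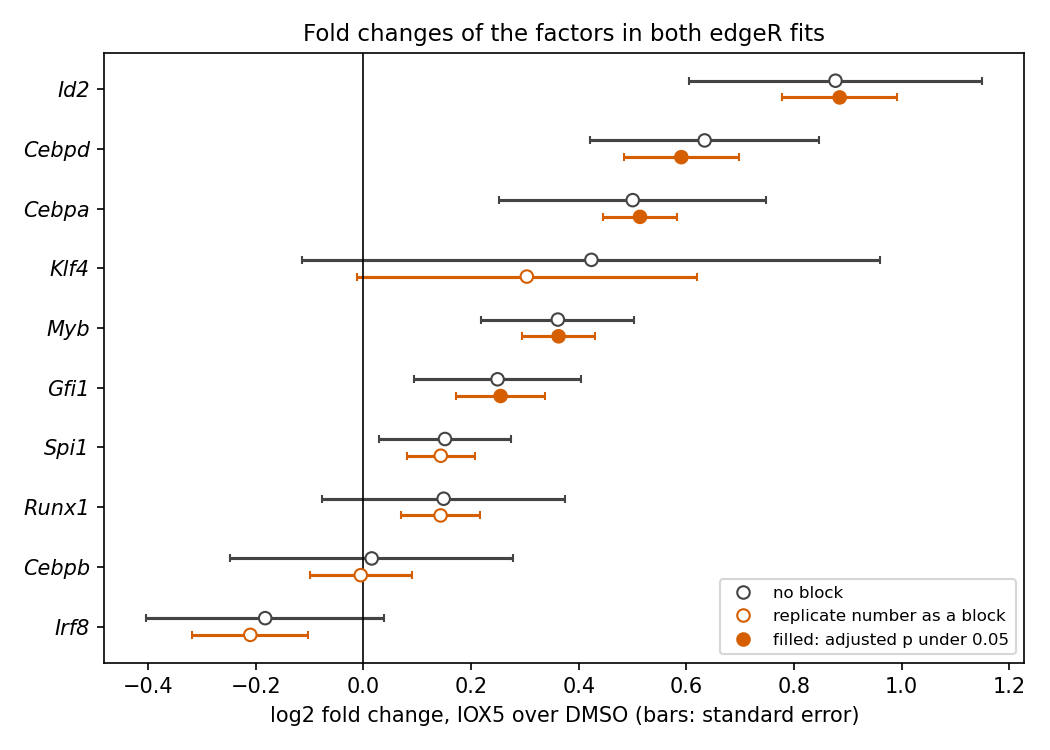
Log2 fold changes of IOX5 over DMSO with their standard errors for the 10 factors, without and with the number as a blocking term in edgeR. Filled points have an adjusted p under 0.05, which holds for *Id2*, *Cebpd*, *Cebpa*, *Myb* and *Gfi1* with the block and for none without it.

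The C/EBP family differed among its members. *Cebpa* (ENSMUSG00000034957; GRCm38 chromosome 7, 35119293 to 35121928, a gene of 1 exon), which commits progenitors to granulocytes and monocytes, was at 112, 69.0, 139 and 140.3 CPM in DMSO samples 1 to 4 and at 154, 110.4, 208 and 178 CPM in IOX5 samples 1 to 4. The groups overlapped, because number 2 was low and numbers 3 and 4 high under both treatments, and each IOX5 sample was above its partner. The log2 fold change was 0.50 (SE, standard error, 0.248, edgeR adjusted p = 0.299) without the block and 0.51 (SE 0.0696, edgeR adjusted p = 0.000401) with it. It stayed under 0.05 with the block when any 1 number was left out (edgeR adjusted p at most 0.00731).

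*Cebpd* (ENSMUSG00000071637; chromosome 16, 15887286 to 15891031), an acute-phase C/EBP protein induced in maturing and stimulated myeloid cells, was at 30.2, 37.9, 33.1 and 31.0 CPM with DMSO and at 43.2, 78.8, 39.8 and 43.4 CPM with IOX5. Every IOX5 sample lay above every DMSO sample, and IOX5 sample 2 stood well above the other 3. The log2 fold change was 0.63 (SE 0.213, edgeR adjusted p = 0.147), 0.59 with the block (edgeR adjusted p = 0.00225), and DESeq2 gave an adjusted p of 0.0415. Without IOX5 replicate 2 the unblocked value was 0.35, and the blocked value without number 2 was 0.42 (edgeR adjusted p = 0.000726). The gene shares exon bases with *Spidr* on the opposite strand, which had a log2 fold change of 0.17 (edgeR adjusted p = 0.401). Reads of opposite strands were told apart in these tables, as *Xist* had 105071 reads and its antisense partner *Tsix* 21.

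*Cebpb* (ENSMUSG00000056501; chromosome 2, 167688915 to 167690418), the C/EBP protein of emergency granulopoiesis and macrophages, was at 152, 188, 101 and 118 CPM with DMSO and at 112, 220.2, 116 and 117 CPM with IOX5. Number 2 was the highest under both treatments, and the 4 numbers split evenly between higher and lower. Its log2 fold change was 0.015 (SE 0.263, edgeR adjusted p = 0.983), with no stable sign, since it was -0.0051 with the block and -0.28 without IOX5 replicate 2. The other relatives were measured as well. *Cebpe*, which drives the late steps of granulocyte maturation, was at 22.9, 16.1, 13.4 and 10.7 CPM with DMSO and at 35.6, 29.0, 17.5 and 14.3 CPM with IOX5, a log2 fold change of 0.61 that was called with the block (edgeR adjusted p 0.333 without it and 0.00182 with it). *Cebpg* (0.11) and *Ddit3* (-0.037), which heterodimerize with other C/EBP proteins, were called in neither fit.

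*Id2* (ENSMUSG00000020644; chromosome 12, 25093799 to 25097140) had the largest log2 fold change of the 10. It was at 14.3, 13.7, 22.3 and 27.2 CPM with DMSO and at 23.2, 32.3, 45.6 and 41.0 CPM with IOX5. Numbers 3 and 4 were higher than 1 and 2 under both treatments, so that the groups overlapped, although each IOX5 sample exceeded its partner. The log2 fold change was 0.88 (SE 0.273, edgeR adjusted p = 0.122), and the adjusted p was 0.000224 by edgeR with the block and 0.0228 by DESeq2. The blocked call held with any 1 number left out, with log2 fold changes between 0.78 and 1.0.

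The other members of the ID family gave no such difference. *Id1*, which binds E proteins in the same way, was at 66.8 ± 8.56 CPM with DMSO and 70.2 ± 6.01 CPM with IOX5 (SD, n = 4 each; log2 fold change 0.071, edgeR adjusted p = 0.736). *Id3* and *Id4* had 15 and 5 reads over the 8 samples and were not tested. Of the 3 E proteins that ID2 can bind, 0 were called in either fit. *Tcf4* had a log2 fold change of -0.16 (edgeR adjusted p 0.275 without the block and 0.0810 with it), *Tcf12* 0.13 and *Tcf3* 0.044.

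*Myb* (ENSMUSG00000019982; chromosome 10, 21124935 to 21160984, minus strand), required for the self-renewal of MLL-rearranged leukemia cells, was at 354, 259, 328 and 382 CPM with DMSO and at 493, 337, 441 and 429.9 CPM with IOX5. All samples but number 2 of the IOX5 group lay above the highest DMSO sample. The log2 fold change was 0.36 without the block (SE 0.142, edgeR adjusted p = 0.203) and 0.36 with it (SE 0.0686, edgeR adjusted p = 0.00284), and the blocked adjusted p stayed at or below 0.0401 by edgeR with any 1 number left out. By DESeq2 it was 0.0912.

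Its relative *Mybl2*, which drives genes of the G2 and M phases of the cell cycle, had a value of the opposite sign. *Mybl2* was at 104, 119, 119 and 115 CPM with DMSO and at 81.5, 75.0, 99.5 and 105 CPM with IOX5, lower in all 4 numbers (log2 fold change -0.34; edgeR adjusted p 0.136 without the block and 0.00900 with it). *Mybl1* was low and did not pass either fit (log2 fold change 0.11).

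*Gfi1* (ENSMUSG00000029275; chromosome 5, 107716657 to 107726036, minus strand), a repressor that favors granulocytes over monocytes, was at 90.8, 61.4, 60.1 and 68.3 CPM with DMSO and at 99.5, 87.8, 78.0 and 68.4 CPM with IOX5. Number 4 was nearly equal under both treatments, at 68.3 and 68.4 CPM, and the difference came from the other 3 numbers. The log2 fold change was 0.25 (SE 0.156, edgeR adjusted p = 0.411), and the blocked call was the weakest of the 5 (edgeR adjusted p = 0.0425). It was lost without number 1, 2 or 3 (adjusted p = 0.0667, 0.135 and 0.206 by edgeR), with a log2 fold change of 0.17 without number 2. *Gfi1b*, the paralog of erythroid and megakaryocytic cells, had a log2 fold change of 0.28 and was not called (edgeR adjusted p 0.592 without the block and 0.165 with it).

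*Irf8* (ENSMUSG00000041515; chromosome 8, 120736358 to 120756694), which directs monocyte and dendritic cell fate and limits granulocytes, had the only log2 fold change below 0 among the 10 without the block, and with the block *Cebpb* was below 0 as well. It was at 59.1, 80.1, 51.8 and 63.0 CPM with DMSO and at 35.6, 77.9, 56.6 and 53.9 CPM with IOX5. The value rested largely on number 1, and the fold change of -0.18 on the log2 scale (SE 0.221, edgeR adjusted p = 0.689) was -0.016 without IOX5 replicate 1. Of its relatives in the IRF family 7 of 8 were tested and 0 were called in either fit, with a median log2 fold change of 0.032 and values between -0.20 (*Irf7*) and 0.13 (*Irf1*).

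*Spi1* (ENSMUSG00000002111; chromosome 2, 91082390 to 91115756), which encodes PU.1, was at 232, 269, 212 and 222 CPM with DMSO and at 248, 324, 228 and 238 CPM with IOX5. It was above its partner in all 4 numbers, by 0.10 in numbers 1, 3 and 4 and by 0.27 in number 2 on the log2 scale, and was not called (log2 fold change 0.15, SE 0.122; edgeR adjusted p 0.528 without the block and 0.124 with it). Without IOX5 replicate 2 the log2 fold change was 0.027. Its relatives *Spib* and *Spic* had 25 and 4 reads over the 8 samples and were not tested.

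*Runx1* (ENSMUSG00000022952; chromosome 16, 92601466 to 92826149, minus strand), a founder of the hematopoietic program, was at 57.8, 46.5, 75.6 and 82.0 CPM with DMSO and at 60.5, 52.5, 96.0 and 81.3 CPM with IOX5. The groups overlapped between 52.5 and 82.0 CPM, and the log2 fold change of 0.15 (SE 0.226, edgeR adjusted p = 0.757) changed sign to -0.016 without IOX5 replicate 3. *Runx2*, *Runx3* and *Cbfb*, the partner subunit of all RUNX proteins, had log2 fold changes of -0.00048, -0.026 and -0.078, and 0 of the 3 were called in either fit.

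*Klf4* (ENSMUSG00000003032; chromosome 4, 55527143 to 55532466, minus strand), a monocyte factor, was at 1.84, 2.02, 1.62 and 1.39 CPM with DMSO and at 2.16, 5.24, 1.09 and 0.781 CPM with IOX5, from 199 reads in all. IOX5 sample 2 was the highest, and samples 3 and 4 were below every DMSO sample. The log2 fold change of 0.42 (SE 0.537, edgeR adjusted p = 0.707) became -0.35 without IOX5 replicate 2, so that no direction could be given. Of 15 other KLF genes 12 were tested. With the block *Klf10* was called higher (log2 fold change 0.30, edgeR adjusted p = 0.0454) and *Klf7* lower (-0.33, edgeR adjusted p = 0.0178). These are 8.33% of the 12 in each direction, against 11.2% and 9.43% of all genes. DESeq2 called *Klf7* lower too (adjusted p = 0.0423). *Klf7* was lower in every IOX5 sample (20.6 to 24.6 CPM) than in any DMSO sample (26.7 to 30.0 CPM).

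How far the replicate number and the treatment each accounted for the spread was described by the shares of the sum of squares of log2 CPM over the 8 samples. The number took the larger share in 8 of the 10 factors, with a median of 66.8% against 51.9% over all genes tested. By design the 4 numbers can take up more of the spread than the 2 groups. The median share of the treatment was 20.5% in the factors and 18.0% over all genes tested. These shares were not tested. The share of the number was 91.7% for *Runx1*, 87.5% for *Cebpb* and 80.4% for *Spi1*. In *Id2* and *Cebpd* the treatment took the larger share, at 55.6% and 49.6%, and in *Myb* it took 43.8%. For *Cebpa* the number took 66.3% and the treatment 31.8%, which left 1.90% for all else.

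**Figure D4:**
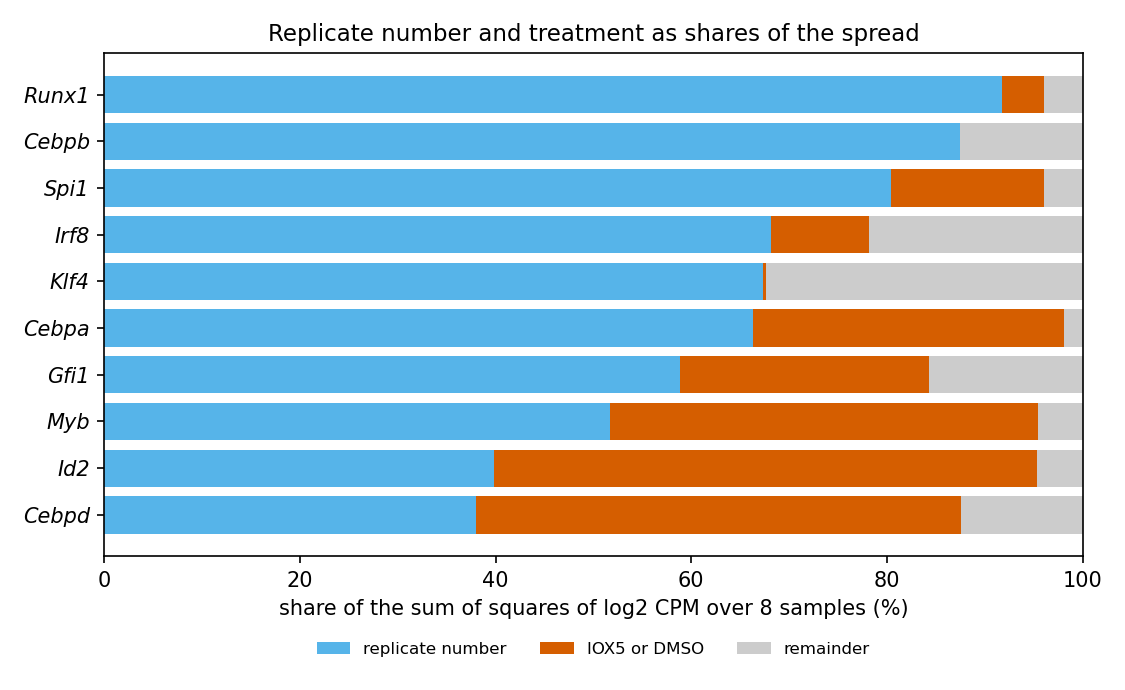
Shares of the sum of squares of log2 CPM over 8 samples (horizontal axis, %) that went with the replicate number, with the treatment and with neither, for each of the 10 factors. The treatment share is largest for *Id2* (55.6%) and *Cebpd* (49.6%), and the number share for *Runx1* (91.7%).

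Because these proteins act against or with each other, log2 ratios of their CPM values were formed within each sample and are given without a test. The ratio of *Irf8* to *Gfi1* was -0.62, 0.38, -0.21 and -0.12 in DMSO samples 1 to 4 and -1.48, -0.17, -0.46 and -0.34 in the IOX5 samples, lower with IOX5 in all 4 numbers. The ratio of *Cebpa* to *Spi1* was higher with IOX5 in all 4 numbers, with means of -1.07 ± 0.624 and -0.70 ± 0.613 (SD, n = 4 each). That of *Cebpb* to *Cebpa* was lower in all 4, with means of 0.29 ± 0.857 and -0.23 ± 0.831, and that of *Id2* to *Myb* was higher in all 4, with means of -4.13 ± 0.376 and -3.61 ± 0.531. For each ratio the groups overlapped. Of single genes, 21.3% were higher with IOX5 in all 4 numbers, and the share lower in all 4 was not computed. The ratios restate the values of the factors given above. *Cebpa*, itself higher in all 4 numbers, enters both the ratio to *Spi1* and that of *Cebpb*.

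The genes that these factors are known to control were then examined in 4 lists, which share some genes and also hold repressed ones, such as *Bcl2l1*. A pooled direction therefore does not give the activity of the factors. Of 62 tested genes 50 had a log2 fold change above 0, as had 6550 of the 12405 genes tested. The median log2 fold change of the 62 was 0.28 against 0.017 over all genes. Only 1, *Gstm1*, was called without the block, where edgeR called 2.02% of all genes, and 33 were called higher and 5 lower with it. These are 53.2% and 8.06% of the 62, against 11.2% and 9.43% of all genes, so that the share called lower was near that of all genes. In the PU.1 list 12 of 22 were called higher and 1 lower with the block, in the C/EBP list 11 of 19 and 1, in the IRF8 list 3 of 8 and 0, and in the MYB list 10 of 16 and 3.

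Among genes downstream of PU.1, *Lyz2*, the lysozyme of macrophages and neutrophils, was at 663, 754, 500.5 and 667 CPM with DMSO and at 869, 1927, 948 and 976 CPM with IOX5. The groups did not overlap, and the log2 fold change was 0.87 (edgeR adjusted p 0.108 without the block and 0.000743 with it). *Cd14*, a receptor for lipopolysaccharide, did not overlap either, with 15.3 to 19.1 CPM against 20.6 to 38 CPM (log2 fold change 0.60, edgeR adjusted p = 0.00561 with the block), nor did the kinase gene *Btk*, with 138 to 145 CPM against 156 to 163 CPM (0.19, edgeR adjusted p = 0.0453 with the block). *Csf1r* (log2 fold change 0.36) and *Csf2ra* (0.27), receptors of the macrophage and granulocyte-macrophage growth factors, were called in neither fit. *Fcgr1*, the high-affinity IgG receptor and the gene of this list called lower with the block, was at 16.0 ± 4.2 CPM with DMSO and 8.75 ± 3.74 CPM with IOX5 (SD, n = 4 each; log2 fold change -0.87, edgeR adjusted p = 0.000427 with the block).

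Among genes downstream of the C/EBP proteins, *Chil3* was at 38, 92.2, 59.5 and 41.6 CPM with DMSO and at 50.9, 213, 106 and 75.7 CPM with IOX5 (log2 fold change 0.94; edgeR adjusted p 0.278 without the block and 0.000178 with it). The primary granule genes *Elane* and *Mpo*, which encode neutrophil elastase and myeloperoxidase, had smaller values, 0.23 (edgeR adjusted p = 0.0336 with the block) and 0.26 (edgeR adjusted p = 0.0196 with the block). *Mpo* ranged from 984 to 3380.4 CPM within the DMSO group, lower in numbers 1 and 2 than in 3 and 4 under both treatments, as *Cebpa* was. *Csf3r*, the receptor of the granulocyte growth factor, was at 41.0 ± 15.1 CPM with DMSO and 41.8 ± 16.8 CPM with IOX5 (SD, n = 4 each) and was called in neither fit (log2 fold change 0.028).

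Of the IRF8 list, *Cst3*, which encodes cystatin C, came closest to the threshold without the block (edgeR adjusted p = 0.0517). Its levels were 224 to 249 CPM with DMSO and 275 to 346 CPM with IOX5, a log2 fold change of 0.37, although *Irf8* itself was not higher. *Bcl2l1*, which encodes BCL-XL and is known as a gene that IRF8 represses, was at 35 to 41.4 CPM with DMSO and 42.1 to 45.4 CPM with IOX5 (log2 fold change 0.23, edgeR adjusted p = 0.0453 with the block). *Ifi30*, a lysosomal reductase of antigen processing, had no overlap in the other direction (49.7 to 53.5 CPM against 40.2 to 47.2 CPM) and an adjusted p of 0.0508 by edgeR with the block.

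In the MYB list the calls went both ways. *Gstm1*, a glutathione transferase gene, was between 129 and 192 CPM with DMSO and between 229 and 276 CPM with IOX5, and was the one gene of all lists of relatives, other factors and downstream genes that passed without the block (log2 fold change 0.63, SE 0.118, edgeR adjusted p = 0.0409). With each sample left out in turn, at most 3 genes of these lists were called and in 7 of the 8 cases 0. *Kit*, the stem cell factor receptor, was higher in all 4 numbers (74.7 ± 25.5 against 97.5 ± 29.5 CPM, SD, n = 4 each; log2 fold change 0.39, edgeR adjusted p = 0.00259 with the block). *Ccnb1*, the mitotic cyclin B1, was at 168 to 200.4 CPM with DMSO and 117 to 155 CPM with IOX5 (log2 fold change -0.44; edgeR adjusted p 0.0560 without the block and 0.00065 with it), and *Mat2a*, which makes S-adenosylmethionine, had a log2 fold change of -0.34 (edgeR adjusted p = 0.00409 with the block).

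Of 51 other transcription factors that were tested, 0 were called without the block. They were factors of progenitors and of monocytes and the 3 E proteins named above. With the block 9 were called higher and 3 lower, shares of 17.6% and 5.88% against 11.2% and 9.43% of all genes. The share called lower rests on 3 genes and was not tested, so it is not read as different from that of all genes. The 3 lower were *Ikzf1* (log2 fold change -0.35, edgeR adjusted p = 0.00280 with the block), which encodes the lymphoid and myeloid regulator IKAROS, *Mef2c* (-0.45, edgeR adjusted p = 0.00129 with the block), a factor that supports MLL-rearranged leukemia, and *Rel* (-0.53, edgeR adjusted p = 0.000667 with the block), an NF-κB subunit. Each was lower in all 4 numbers. *Erg*, a factor of stem cells and megakaryocytes, was at 52.9, 30.9, 52.0 and 51.8 CPM with DMSO and at 74.2, 40.7, 72.1 and 70.9 CPM with IOX5 (log2 fold change 0.46, edgeR adjusted p = 0.00065 with the block). *Bhlhe40*, a repressor known as a HIF target, was at 67.6 to 93.2 CPM with DMSO and 94.4 to 115 CPM with IOX5 (log2 fold change 0.39; edgeR adjusted p 0.0821 without the block and 0.00463 with it), and its paralog *Bhlhe41* was at 0 to 1.01 CPM with DMSO and 0.694 to 8.70 CPM with IOX5.

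**Figure D5:**
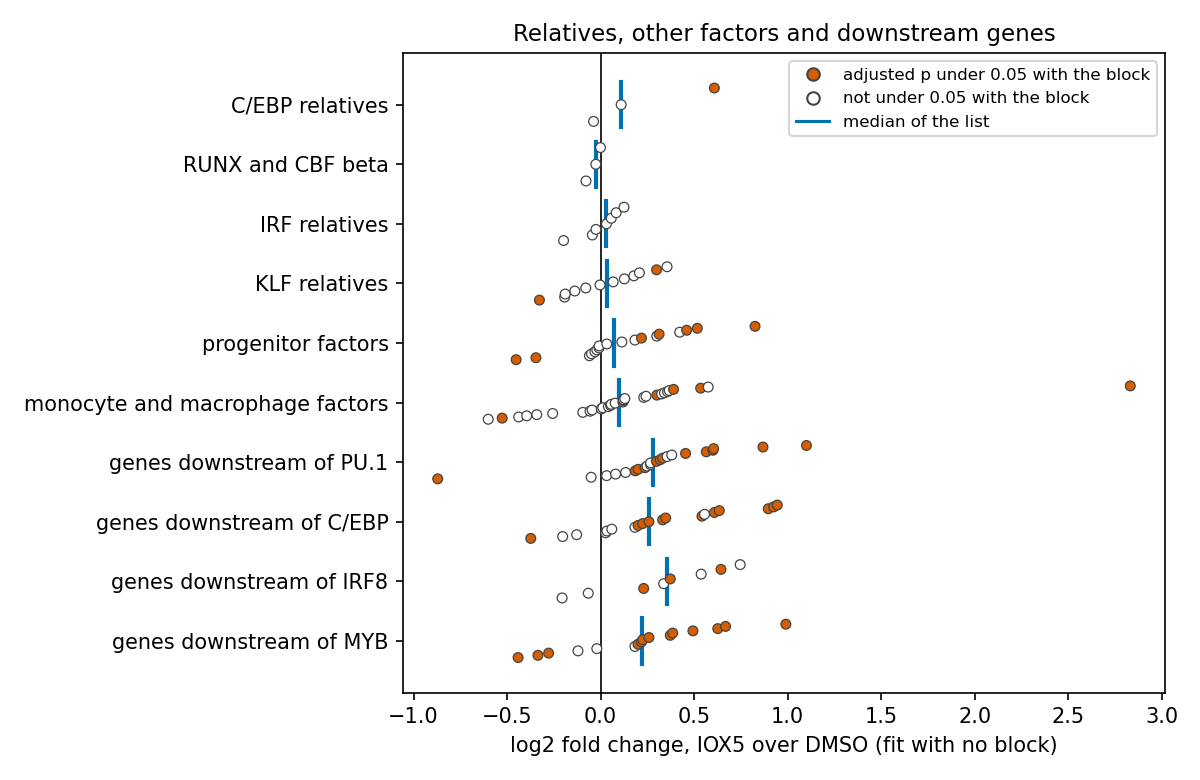
Log2 fold changes (horizontal axis, fit without the block) of the tested genes in 10 lists of relatives, other factors and downstream genes, with filled points for an adjusted p under 0.05 with the replicate block and a line at each median. The medians of the 4 downstream lists lie between 0.22 and 0.35, and those of the relatives and other factors shown between -0.026 and 0.11.

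For each factor called with the block, the genes with the closest standardised log2 CPM profile over the 8 samples were sought among genes with a mean of at least 5 CPM, as a description without a test. The 8 points come from the same libraries for every gene, and differences between numbers enter the distances as well as the treatment. The closest to *Cebpa* were *Gramd4*, *Pink1* and *Itga2b*, at root-mean-square distances of 0.096, 0.129 and 0.138 standard deviations. Those to *Id2* were *Tbxas1* (0.130), *Card19* (0.190) and *N4bp3* (0.222), and among those to *Myb* were *St3gal4* (0.155) and *Rida* (0.186). Those to *Cebpd* were *Hsd17b11* (0.175), *Gpsm3* (0.182) and *Scarb2* (0.188), and those to *Gfi1* were *Ppt2* (0.145), *Arfgap3* (0.201) and *Car9* (0.250).

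Markers of neighboring lineages moved with the treatment beside the factors. The summed level of 15 erythroid and megakaryocytic markers was 197 to 326 CPM with DMSO and 323 to 464 CPM with IOX5, higher in all 4 numbers as 21.3% of single genes were, with 7 of 11 tested genes called higher with the block and 0 lower, against 11.2% and 9.43% of all genes. Of the mast cell and basophil markers 7 of 8 tested genes were called higher with the block and 0 lower. The 10 progenitor markers summed to 2245 to 4519 CPM with DMSO and 2623 to 5211 CPM with IOX5. *Mpo* alone ran from 984 to 3380 CPM with DMSO and from 1141 to 3915 CPM with IOX5, so the sums largely follow 1 gene. Of the 10, 5 were called higher with the block against the same 11.2%. Log2 fold changes were above 0 in 7 and below 0 in 3, with *Hoxa9* at -0.048, *Hoxa10* at -0.0085 and *Meis1* at 0.033. The lymphoid markers summed to at most 26.6 CPM, with *Il7r* as the 1 gene called. The part of these lineages in the values of the 10 factors was not tested.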

How the data were processed

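RNA-seq was done on 8 samples, 4 per group. Poly(A) RNA was made into strand-specific libraries. The authors trimmed reads with cutadapt 1.18, aligned them with HISAT2 2.2.1 to GRCm38 and deposited raw counts per Ensembl gene from HTSeq 2.0.1, with no normalization. The annotation release and the strand setting used for counting are not given in the sources used here. Symbols and coordinates were taken from GENCODE M21 by identifier (54723 of 54838 matched). The 5 summary lines of each file (20.6% to 22.6% of reads) were left out.

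Counts were filtered with filterByExpr and scaled with TMM, and the groups were compared by edgeR 4.0.16 in R 4.3.3 (quasi-likelihood test, no block, Benjamini-Hochberg over 12405 genes, threshold 0.05). log2 CPM values used a prior count of 2, and levels per kilobase the union of exons. The steps were tested on simulated data. Groups and numbers came from the sample titles. Deviations from the group means correlated at 0.758, 0.744, 0.732 and 0.636 between samples with the same number 1 to 4, while the highest correlation with another number of the other group was 0.212, 0.0292, 0.617 and 0.685. Number 4 thus correlated better with another number than with its own. Every same-number correlation was over 0.1, the criterion used, and the numbers were taken to pair the samples. For numbers 1, 3 and 4 the highest correlation with another number passed 0.1 too, so this criterion cannot establish the pairing. The sex-linked genes set only number 1 apart. Results of a fit blocked on the number are given where a call differs, and the blocked calls rest on this assumed pairing. This pairing comes from the data, not from the labels. Alternatives were DESeq2 1.42.0, limma 3.58.1 (weighted voom), upper-quartile or RLE scaling, no filter, a minimum of 10 reads in every sample, a threshold of 0.1 and samples or numbers left out. The fit on numbers 1, 3 and 4 without a block was chosen after seeing the data.

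The 10 factors and the gene lists were chosen with earlier results of these data known. Named genes were all 10 factors, in each list the 3 genes with the smallest unadjusted p (2 in lists under 5 genes) and any called, *Csf1r*, *Csf3r*, *Csf2ra*, *Mpo*, *Elane* and *Kit*, and the 3 closest profiles of each called factor. Genes at the extremes of a range, the remaining members of small families, marker genes, *Fcgr1* and *Il7r* were named after their values were seen. Some genes that this rule or the marker lists hold are not reported here.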

Additional observations from a re-analysis of the deposited data

Results flagged for a closer look

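In each group of 4, the gap between the most extreme sample and its neighbor was compared with the whole range for 48 genes, the 10 factors and the named relatives, other factors and downstream genes, giving 96 groups. A gap above Dixon's 95% critical value was taken as a sample standing apart, which chance alone gives in about 1 in 20 groups. This was the case in 7 of the 96 groups, which was not tested against that rate and is not read as above it. In all 7 the sample was replicate 2, which was IOX5 replicate 2 in 5 of them and DMSO replicate 2 in the other 2. All genes were measured in the same libraries, and some were named for a small p. The 7 groups are therefore not independent signs that replicate 2 stands apart. The share of such groups over all genes tested is not given here.

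Among the factors, IOX5 replicate 2 was the highest for *Cebpb* (220.2 CPM, a gap of 0.959 of the range) and for *Cebpd* (78.8 CPM, 0.906). Among the other genes it was the lowest for *Cebpg* (56.2 CPM, 0.979) and *Erg* (40.7 CPM, 0.904) and the highest for *Lyz2* (1927 CPM, 0.899). DMSO replicate 2 was the lowest for *Erg* (30.9 CPM, 0.952) and the highest for *Rel* (68.0 CPM, 0.853). For *Erg* the same number stood apart under both treatments.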

How the results depend on the processing

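Over 199 recomputed values of the 10 factors under up to 20 alternatives each, 187 kept the sign and 12 did not. *Cebpb* was -0.0051 with the replicate block, -0.088 and -0.073 with the block and without number 2 or 3, -0.11 on numbers 1, 3 and 4 without a block, and -0.28 to 0.19 with single samples left out. *Klf4* was -0.12 with limma's voom, -0.27 with the block and without number 2, -0.26 on numbers 1, 3 and 4, and -0.35 to 0.71 with single samples left out. *Runx1* ran from -0.016 to 0.29 with single samples left out. The number of factors called, 0 without the block, was 5 with it, 4, 4, 4 and 5 with the block and without numbers 1 to 4, 2 with DESeq2 and 0 under every other alternative, single samples left out included. Over all genes, 96 were called higher and 155 lower. The counts were 1394 and 1170 with the block, 994 and 650, 1119 and 1016, 642 and 403, and 1355 and 1058 with the block and without numbers 1 to 4, 489 and 602 with DESeq2, 426 and 610 with voom, 39 and 37 on numbers 1, 3 and 4, 332 and 486 at an adjusted p under 0.1, 0 to 130 and 0 to 333 with single samples left out, and 79 and 73 with no filter. Of the related and downstream genes 1 was called, against 52 with the block, 43, 43, 29 and 46 with the block and without numbers 1 to 4, 11 with DESeq2, 11 with voom, 2 with upper-quartile factors, 2 with at least 10 reads in every sample, 3 on numbers 1, 3 and 4, 6 at an adjusted p under 0.1, and 0 to 3 with single samples left out. The causes of these shifts were not tested. *Klf4* had the fewest reads of the 10 factors, with 9 in its lowest sample.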

Other observations

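These genes of neighboring lineages were chosen after their values were seen. *Vwf*, which encodes the von Willebrand factor of platelets and endothelium, was at 12.4, 10.1, 5.85 and 9.96 CPM in DMSO samples 1 to 4 and at 22.7, 51.7, 31.4 and 19.6 CPM in IOX5 samples 1 to 4. It was called without the block (log2 fold change 1.71, edgeR adjusted p = 0.0442). *Itga2b*, the platelet integrin CD41, was at 41.6, 14.5, 58.5 and 56.7 CPM with DMSO and at 58.9, 32.1, 101.0 and 79.4 CPM with IOX5, and was called with the block (edgeR adjusted p = 0.000407).

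*Cpa3*, the carboxypeptidase of mast cells, was at 21.2, 18.0, 95.1 and 75.0 CPM with DMSO and at 31.7, 50.6, 229 and 148 CPM with IOX5, low in numbers 1 and 2 and high in 3 and 4 under both treatments (log2 fold change 1.14; edgeR adjusted p 0.417 without the block and 6.24e-05 with it). *Il7r*, a receptor of lymphoid progenitors, was at 0.812 to 2.19 CPM with DMSO and 3.38 to 16.7 CPM with IOX5 (log2 fold change 2.14; edgeR adjusted p 0.0807 without the block and 0.00111 with it), while the other lymphoid markers that passed the filter, *Cd79b* and *Tcf7*, were called in neither fit.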
